A study of Mus musculus with 9 samples.

Results

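Genes of hereditary hearing loss that act outside the hair cell, or in many cell types, were followed in HEI-OC1 cells that carried LMX1A or an empty vector. The set holds 41 genes, taken by gene symbol from a table of 55451 genes, and all 41 were found. The rule of choice rests on what is known of them in deafness. By their main role, 5 act on actin and nonmuscle myosin, 4 in ion transport, 3 in tight junctions, 6 in growth factor signalling or in neural crest and melanocytes, 5 in transcription, 8 in mitochondria, tRNA charging or nucleotide synthesis, and 10 in the secretory pathway, matrix, membranes or signalling.

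HEI-OC1 is an immortalised line from the organ of Corti of the mouse, and the labels call it a cochlear hair cell line. RNA was sequenced in 3 libraries of cells transduced with the LMX1A c.915dup variant (c915dup), in 3 of cells with the wild-type gene (WT) and in 3 of cells with an empty vector (EV). LMX1A encodes a transcription factor of the LIM-homeodomain class, c.915dup is a frameshift form that the study ties to familial deafness, and all groups share the genome of the line. The labels name no promoter or clone and do not say how many cultures were used, so each p-value speaks of library-to-library spread, part of which may be technical. Human LMX1A stood at 170, 150 and 149 FPKM in c915dup, at 133, 132 and 131 FPKM in WT, and was listed at 0 in all 3 EV libraries. FPKM counts fragments for each kilobase of transcript in each 1000000 fragments of a library. The columns of c915dup are numbered 1, 3 and 4, and those of WT and EV 1, 2 and 3. In each group the library numbered 1 stood apart, with 5.49% of summed FPKM from mitochondrial genes in c915dup, 4.36% in WT and 5.46% in EV, against 1.69% to 2.17% in the other 6 libraries. Depth, estimated from the steps of the FPKM values, was about 13.2 to 16.3 in units of 1000000 fragments per library.

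Hearing depends on much more than hair cells. The stria vascularis secretes potassium into the endolymph, tight junctions seal that fluid off, fibrocytes of the spiral ligament return potassium, and melanocytes settle in the stria as intermediate cells. Other deafness genes, such as those of mitochondrial tRNA synthetases, serve every cell.

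Markers set the line against its label. Of 11 hair cell markers, Atoh1, Ocm, Otof and Slc26a5 were listed at 0 in all 9 libraries, and the unconventional myosin Myo6 alone was high enough to be tested, at a mean of 6.97 FPKM. The summed FPKM of the 11 markers ran from 7.02 to 7.92 in c915dup, from 6.77 to 7.45 in WT and from 7.16 to 7.85 in EV. Most of that sum was Myo6, which ran from 6.44 to 7.73 FPKM over the 9 libraries. None of 7 markers of strial cells and none of 4 epithelial markers was tested. Of 8 supporting cell markers 4 were tested, with Sox2, Prox1 and Gjb2 at 0. Of 8 markers of mesenchyme or spiral ligament fibrocytes 6 were tested, led by the collagens Col1a1 at 490.2 FPKM and Col3a1 at 370.0 FPKM on average, while the fibrocyte genes Coch and Otos stayed near 0. The label as a hair cell line was thus not borne out by the defining hair cell markers.

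The line transcribed most of the 41 genes. A gene was tested where it reached at least 1 FPKM in at least 3 libraries. Of the 41 genes 27 did so (65.9%), and each of these 27 was at 1 FPKM or more in all 9 libraries. Among all genes listed 21.5% were tested, and among protein-coding genes 49.3%. The mean over 9 libraries was at least 10 FPKM for 16 deafness genes and at least 100 FPKM for 5. The median level of the 27 was 14.0 FPKM, beside 10.5 FPKM over all 11933 genes tested and 11.6 FPKM over the protein-coding ones.

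The genes that were tested and those that were not fell apart by role. All 8 genes of mitochondria, tRNA charging and nucleotides were tested, as were 8 of 10 in the secretory and signalling group, 4 of 5 in the actin and myosin group, 4 of 6 in the growth factor and melanocyte group and 3 of 5 in transcription. None of the 4 ion transport genes and none of the 3 tight junction genes was. The 14 genes that were not tested never exceeded 0.158 FPKM in any library, so that no deafness gene lay between 0.158 FPKM and 1.66 FPKM, the lowest value of a tested one. Slc26a4, Ildr1, Cldn14, Kit and Homer2 were listed at 0 in all 9 libraries.

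**Figure D1:**
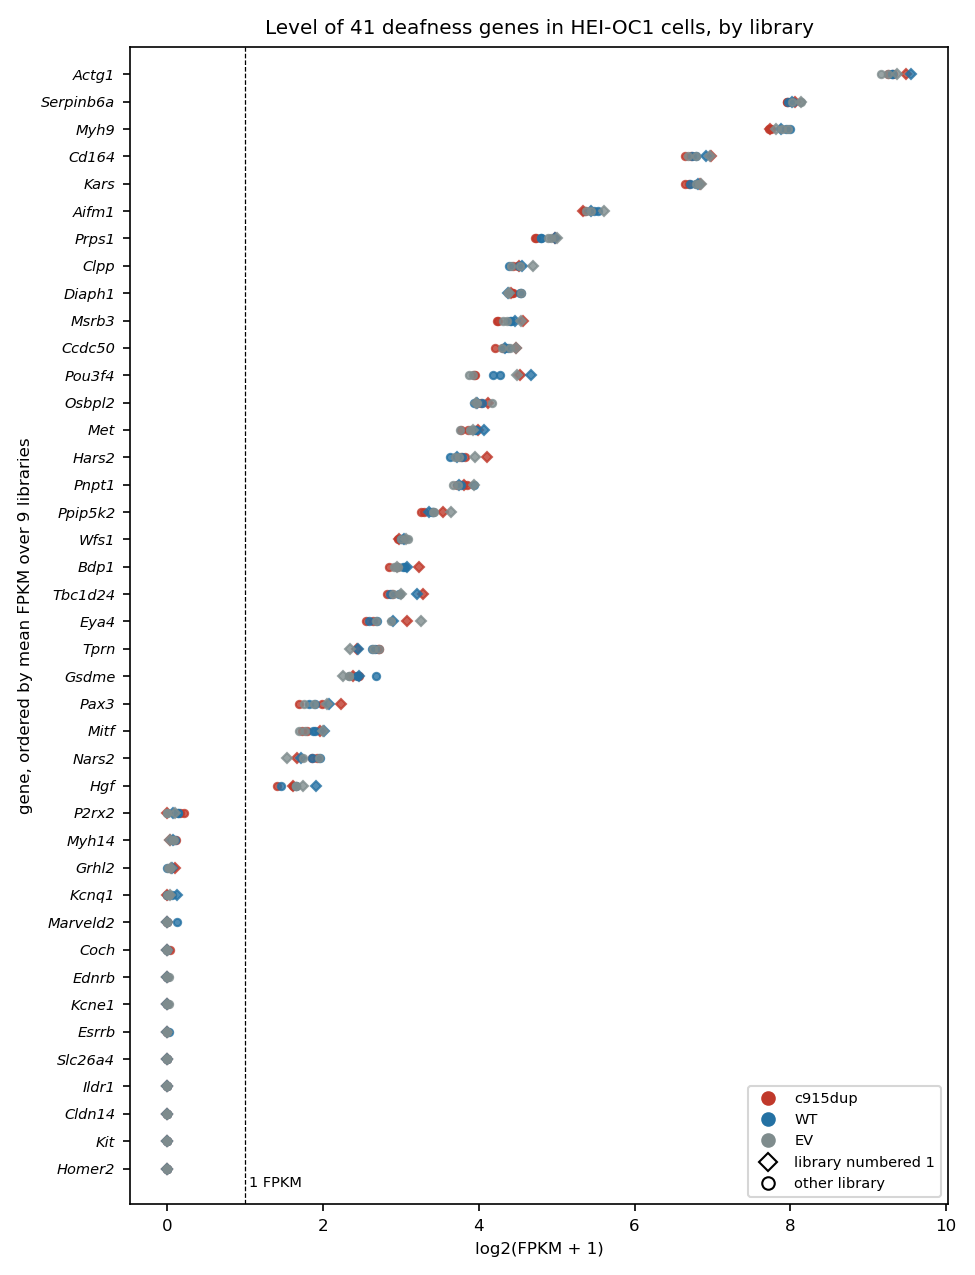
Level of each of the 41 genes in each of the 9 libraries, as log2(FPKM + 1) on the x axis, with genes ordered by mean FPKM, colours for the 3 groups and diamonds for libraries numbered 1. The 27 tested genes lie to the right of the dashed line at 1 FPKM in every library, and the other 14 crowd at 0.

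Each form of LMX1A was set against the vector, and the frameshift form against the wild type, to ask which of these genes respond to either. The threshold was an adjusted p of 0.05, from limma on log2(FPKM + 1) with Benjamini-Hochberg adjustment over all 11933 genes. In WT against EV 0 of the 27 deafness genes passed, where 0.352% of all genes tested did. In c915dup against EV 0 of 27 passed, where 1.09% of all genes did, and in c915dup against WT 0 of 27 passed, where 0.226% did. In this fit, which has no block, 1 deafness gene in each comparison had an unadjusted p under 0.05. It was Gsdme in WT against EV and Myh9 in both others, beside 6.126%, 11.44% and 10.42% of all genes.

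The differences were small and the design bounds most of them. The log2 differences ran from -0.21 to 0.28 in WT against EV, from -0.17 to 0.13 in c915dup against EV and from -0.23 to 0.19 in c915dup against WT. The 95% intervals lay within 0.5 of 0 on the log2(FPKM + 1) scale for 25, 25 and 26 of the 27 genes in the same order of comparisons, and within 1 of 0 for all 27. The widest were those of Eya4 and Pou3f4. The median difference of the 27 genes was 0.02 in WT against EV, -0.01 in c915dup against EV and -0.04 in c915dup against WT, where it was -0.0047, -0.0003 and 0.0016 over all genes tested. In c915dup against WT 22 of the 27 differences were below 0 and 5 above, while over all genes 6034 of 11933 were above 0. All 27 differences come from the same libraries, so their signs are not independent, and the count was not tested. Only the interval of Myh9 lay clear of 0 in that comparison.

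**Figure D2:**
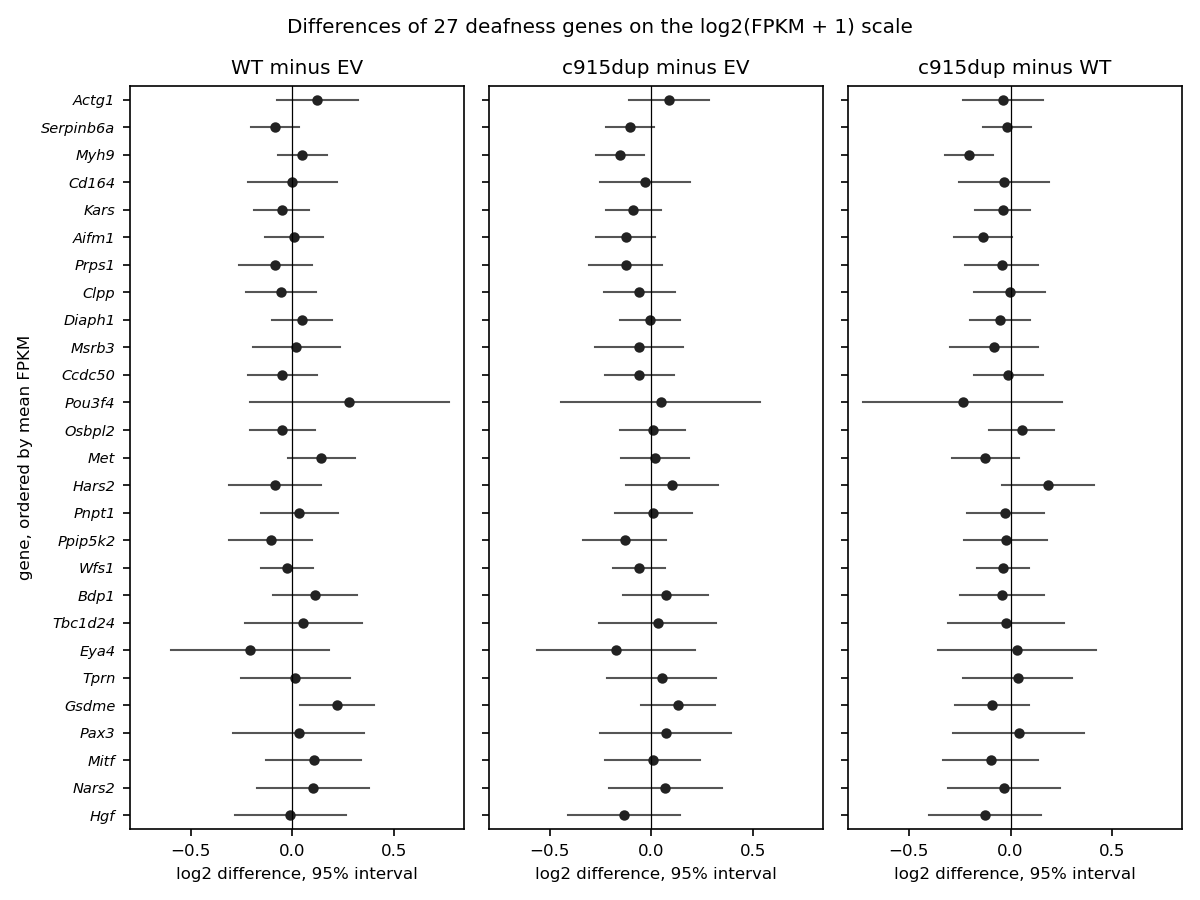
Log2 difference with its 95% interval for each of the 27 tested deafness genes, on the log2(FPKM + 1) scale, in WT minus EV, c915dup minus EV and c915dup minus WT. The intervals cross 0 except those of Myh9 in both panels with c915dup, below 0, and of Gsdme in WT minus EV, above 0, and those of Pou3f4 and Eya4 are the widest.

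Since libraries numbered 1 stood apart in each group, 2 further fits bear on these counts. With the replicate number as a block, in which c915dup replicate 4 has no partner and so adds nothing to a comparison, 0 of 27 deafness genes passed in each comparison, where 0.804% of all genes passed in WT against EV, 1.9% in c915dup against EV and 1.15% in c915dup against WT. With a block that sets libraries numbered 1 against the others, a fit chosen after seeing the data, Pou3f4 passed as higher in WT than EV (1 of 27, where 1.22% of all genes passed). Myh9 passed as lower in c915dup than EV (1 of 27, where 5.54% did), and Myh9 and Pou3f4 passed as lower in c915dup than WT (2 of 27, where 4.81% did). Since 1 of 27 is already 3.704%, these counts are not set apart from the shares over all genes. Each call was lost when some single libraries were left out, as given beside the gene. Unadjusted limma p under 0.05 was more frequent with a block. In WT against EV 6 of 27 (22.22%) had it under either block, where 11.53% and 13.33% of all genes did. In c915dup against EV 2 had it with the replicate block and 7 with the other, where 15.87% and 21.66% did. In c915dup against WT 3 and 5 had it, where 15.36% and 20.53% did. These counts were not tested.

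Actin and nonmuscle myosin build the stress fibres, junctional belts and stereociliary cores of the inner ear. Myh9 encodes the heavy chain of nonmuscle myosin IIA and lies on chromosome 15, positions 77760587 to 77842175 of GRCm38, on the minus strand. It stood at 212, 215 and 211 FPKM in c915dup, at 235, 254 and 246 FPKM in WT and at 224, 249 and 237 FPKM in EV. All 3 c915dup libraries lay below all 6 others, while WT and EV overlapped. The group means were 212 ± 2.08 FPKM in c915dup, 245 ± 9.30 FPKM in WT and 237 ± 12.7 FPKM in EV (SD, n = 3 each).

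The log2 difference of Myh9 was -0.20 ± 0.05 (SE) in c915dup against WT and did not pass (limma adjusted p = 0.201). In c915dup against EV it was -0.15 ± 0.05 (limma adjusted p = 0.282). Among the libraries numbered 1 the difference was -0.15 from WT and -0.08 from EV, and among the others -0.23 from WT and -0.19 from EV. With the block of libraries numbered 1 against the others the limma adjusted p was 0.00977 against WT and 0.0275 against EV. Without c915dup replicate 4 or WT replicate 2 the call against WT was lost under that block (log2 difference -0.18 and -0.19), and the call against EV was lost without c915dup replicate 3 or 4 or any single EV replicate (-0.13 to -0.18). The summed FPKM of the 8 mesenchyme markers was also lower in c915dup, at 847.5 to 880.7, against 903.5 to 1014 in WT and 896.3 to 977.5 in EV. That sum is mostly Col1a1 and Col3a1, and the 6 tested markers of the list differed in sign. In c915dup against EV their log2 differences ran from -0.33 (Pdgfra) to 0.15 (Twist1), with a median of -0.03. In c915dup against WT they ran from -0.28 (Col3a1) to 0.06 (Twist1), with a median of -0.14. The part of this list in the Myh9 values was not tested. In bulk RNA fewer cells of a type and less RNA per cell cannot be told apart.

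Actg1 encodes gamma-actin and was the highest of the 41 genes. It lies on chromosome 11, positions 120345690 to 120348542, on the minus strand. It stood at 716, 635 and 610.3 FPKM in c915dup, at 749, 631 and 633 FPKM in WT and at 661, 612 and 573 FPKM in EV. The libraries numbered 1 were the highest in each group, and the groups overlapped. The log2 difference was 0.12 ± 0.09 (SE) in WT against EV, 0.09 ± 0.09 in c915dup against EV and -0.04 ± 0.09 in c915dup against WT (limma adjusted p = 0.949, 0.782 and 0.951). The coding sequence of Actg1 is very close to that of the beta-actin gene Actb, so that the split of reads between the 2 genes is uncertain. Actb averaged 1340 FPKM, and its 3 libraries numbered 1 lay below all 6 others, opposite to Actg1. Whether the 2 patterns are linked was not tested.

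Diaph1, a formin that nucleates straight actin filaments, ran from 19.7 to 22.4 FPKM over the 9 libraries. Tprn, which encodes taperin, an actin-associated protein of the stereociliary base, ran from 4.09 to 5.57 FPKM. Its 3 lowest values were those of the libraries numbered 1. Myh14, the heavy chain of nonmuscle myosin IIC, was at most 0.0832 FPKM in any library, so that the line transcribed Myh9 and hardly any Myh14.

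Of 13 other genes of actin and nonmuscle myosin, all were tested and 1 changed. Myl9, a regulatory light chain of nonmuscle and smooth muscle myosin, stood at 10.4, 10.9 and 10.1 FPKM in c915dup, at 11.3, 11.9 and 10.02 FPKM in WT and at 6.80, 7.58 and 7.76 FPKM in EV. Both groups with LMX1A lay above all EV libraries. The log2 difference was 0.45 ± 0.08 in c915dup against EV and 0.52 ± 0.08 in WT against EV (SE, limma adjusted p = 0.0234 and 0.0203), and c915dup and WT differed by -0.07 ± 0.08 (limma adjusted p = 0.843). Myh10, the heavy chain of nonmuscle myosin IIB, stood at 32.7, 27.9 and 28.7 FPKM in c915dup, at 35.6, 34.0 and 34.1 FPKM in WT and at 34.8, 35.3 and 33.6 FPKM in EV. As with Myh9, all c915dup libraries lay below all others. It did not pass without a block (log2 difference -0.21 from both WT and EV, limma adjusted p = 0.266 and 0.216) and passed with the block of libraries numbered 1 (limma adjusted p = 0.0323 and 0.0266).

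Transcription genes of this set include factors of otic mesenchyme, epithelia and strial cells, and a general factor of RNA polymerase III. Pou3f4 encodes a POU-domain factor of otic mesenchyme whose loss causes X-linked deafness, and lies on chromosome X, positions 110814280 to 110817207, on the plus strand. It stood at 22.2, 14.3 and 14.5 FPKM in c915dup, at 24.6, 17.2 and 18.3 FPKM in WT and at 21.6, 13.6 and 14.2 FPKM in EV. In every group the library numbered 1 was far above the other 2, and the mean of libraries numbered 1 was 1.48 times that of the others. WT was the highest group both among libraries numbered 1 and among the others.

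The log2 difference of Pou3f4 was 0.28 ± 0.22 (SE) in WT against EV and did not pass (limma adjusted p = 0.955). It was -0.23 ± 0.22 in c915dup against WT and 0.04 ± 0.22 in c915dup against EV (limma adjusted p = 0.800 and 0.968). With the block of libraries numbered 1 the SE was 0.05 and the limma adjusted p was 0.0249 in WT against EV and 0.0288 in c915dup against WT. With the replicate number as the block it was 0.0706 and 0.135. Under the block of libraries numbered 1, the call of WT against EV was lost without WT replicate 2 or 3 or any single EV replicate (log2 difference 0.24 to 0.31). That of c915dup against WT was lost without any single c915dup replicate and without WT replicate 2 or 3 (-0.19 to -0.26). Pou3f4 was itself among the mesenchyme markers. Of the other markers on that list, Pdgfra, a growth factor receptor of mesenchyme, passed as lower in c915dup than EV at means of 15.9 and 20.2 FPKM (log2 difference -0.33, limma adjusted p = 0.0208). Col3a1 passed as lower in c915dup than WT with the replicate block, at means of 338 and 410.1 FPKM (-0.24, limma adjusted p = 0.0341). Tbx18 and Twist1, transcription factors of mesenchyme, had higher means in c915dup than EV and did not pass. Tbx18 averaged 11.45 FPKM in both c915dup and WT and 10.6 FPKM in EV. Every c915dup library lay above every EV library (log2 difference 0.11, limma adjusted p = 0.561). The lowest c915dup value, 11.044 FPKM, and the highest EV value, 11.040 FPKM, nearly met. Twist1 averaged 16.5 FPKM in c915dup and 14.9 FPKM in EV, and the groups overlapped (0.15, limma adjusted p = 0.554).

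Eya4, a transcriptional coactivator with phosphatase activity, ran from 4.86 to 8.56 FPKM, with libraries numbered 1 again above all 6 others, at 1.40 times their mean. Bdp1, a subunit of the factor that recruits RNA polymerase III, ran from 6.23 to 8.44 FPKM. All 3 WT libraries of Bdp1 lay above all 3 EV libraries, at 7.31 ± 0.145 and 6.69 ± 0.150 FPKM (SD, n = 3 each). Grhl2, a factor of epithelia, and Esrrb, an orphan nuclear receptor of strial cells, were at most 0.0717 and 0.0136 FPKM. Of 18 other genes of these families 9 were tested and none passed without a block or with the replicate block.

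The promoters of Myh9 and Pou3f4, the 2 deafness genes with calls in any fit, and of Actg1, the highest gene, are printed from 250 bases before to 50 bases after the RefSeq start on GRCm38.p6, 5′ to 3′ on the strand of the gene. TAAT, the core that homeodomain proteins read, and the CArG box of serum response factor, a regulator of actin genes, were searched on both strands, and capitals mark a CArG box match.
Myh9, chr15:77842126-77842425, minus strand: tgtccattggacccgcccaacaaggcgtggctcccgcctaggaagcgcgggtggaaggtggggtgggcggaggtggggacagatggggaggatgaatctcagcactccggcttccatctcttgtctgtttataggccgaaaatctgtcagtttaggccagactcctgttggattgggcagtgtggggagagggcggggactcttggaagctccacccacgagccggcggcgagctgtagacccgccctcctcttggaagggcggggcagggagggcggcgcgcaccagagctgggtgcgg
Pou3f4, chrX:110814129-110814428, plus strand: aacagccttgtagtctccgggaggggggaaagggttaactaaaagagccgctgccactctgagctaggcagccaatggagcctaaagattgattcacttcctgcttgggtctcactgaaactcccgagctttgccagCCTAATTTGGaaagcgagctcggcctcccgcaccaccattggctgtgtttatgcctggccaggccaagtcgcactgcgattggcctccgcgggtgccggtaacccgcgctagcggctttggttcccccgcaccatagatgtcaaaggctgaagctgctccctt
Actg1, chr11:120348446-120348745, minus strand: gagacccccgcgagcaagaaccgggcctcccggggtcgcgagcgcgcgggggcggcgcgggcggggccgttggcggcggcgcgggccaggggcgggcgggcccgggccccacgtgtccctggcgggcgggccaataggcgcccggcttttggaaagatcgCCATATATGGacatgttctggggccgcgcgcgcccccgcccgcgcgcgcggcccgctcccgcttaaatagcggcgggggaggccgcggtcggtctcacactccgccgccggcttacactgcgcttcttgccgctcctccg
The Myh9 window held neither motif. In the Pou3f4 window the CArG box match at -113 from the start contains the window's only TAAT, at -111, so that the 2 matches are the same letters. The Actg1 window held a CArG box match at -90 and no TAAT. Of the promoters of 24 tested deafness genes with a RefSeq entry, 8 held TAAT and 2 a CArG box, and of 10 untested ones 5 and 0. Over all 20595 promoters of this length 54.4% held TAAT and 1.5% a CArG box, and over those of tested genes 40.7% and 1.29%.

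**Figure D3:**
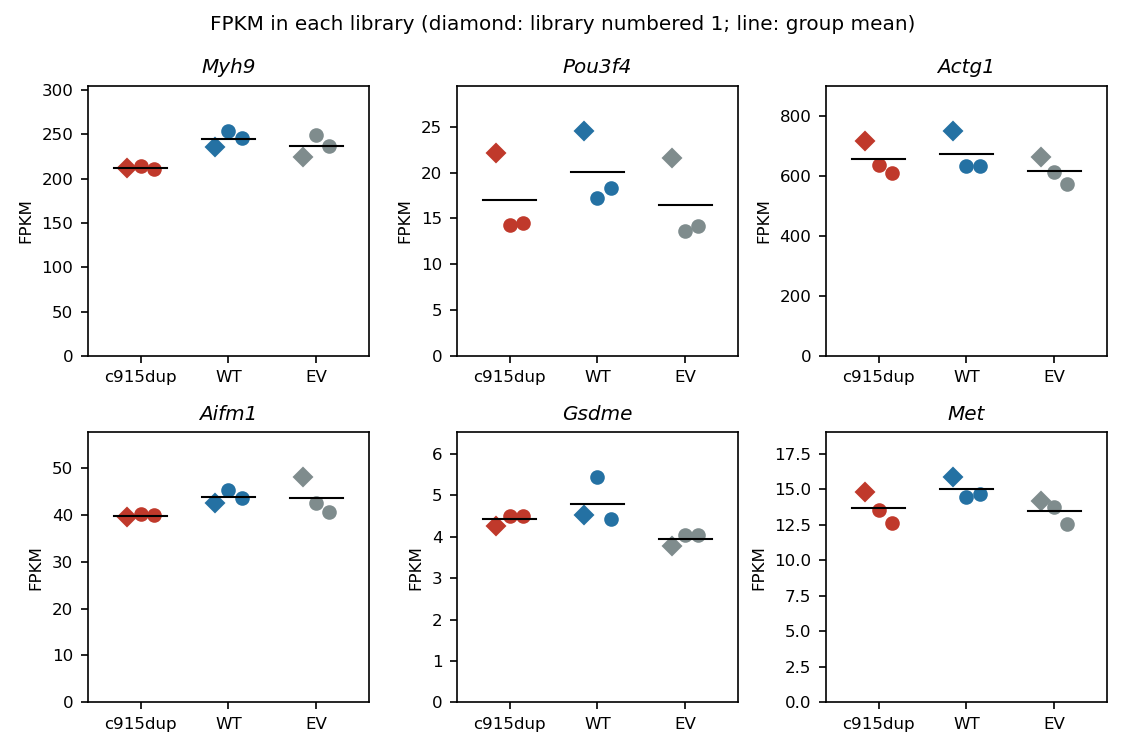
FPKM of Myh9, Pou3f4, Actg1, Aifm1, Gsdme and Met in each library, with c915dup at the left, WT in the middle and EV at the right, diamonds for libraries numbered 1 and lines for group means. Myh9 and Aifm1 are lower in all c915dup libraries than in all others, Gsdme is lowest in EV, and in Pou3f4 the diamonds stand far above the circles.

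Mitochondrial and tRNA-charging genes of the set were all transcribed, and none passed in any comparison. Kars encodes the lysyl-tRNA synthetase of cytosol and mitochondria (chromosome 8, positions 111993443 to 112011323). It stood at 114, 99.3 and 103 FPKM in c915dup, at 112, 109 and 103 FPKM in WT and at 115, 113 and 109 FPKM in EV. The groups overlapped, and the log2 difference was -0.09 ± 0.06 (SE) in c915dup against EV (limma adjusted p = 0.641). Aifm1 encodes a flavoprotein of the mitochondrial intermembrane space that acts in respiration and cell death (chromosome X, positions 48474944 to 48513563). It stood at 39.4, 40.1 and 39.8 FPKM in c915dup, at 42.5, 45.3 and 43.6 FPKM in WT and at 47.9, 42.5 and 40.5 FPKM in EV. All c915dup libraries lay below all others, though the highest of them and the lowest EV library nearly met. The log2 difference was -0.13 ± 0.06 from both WT and EV (SE, limma adjusted p = 0.505 and 0.513).

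Hars2 encodes the mitochondrial histidyl-tRNA synthetase (chromosome 18, positions 36783008 to 36792562). It stood at 16.2, 13.2 and 12.6 FPKM in c915dup, at 12.2, 11.4 and 12.8 FPKM in WT and at 14.5, 12.4 and 11.95 FPKM in EV. The groups overlapped, and the log2 difference in c915dup against WT was 0.19 ± 0.10 (SE, limma adjusted p = 0.569). It was 0.38 between the libraries numbered 1 and 0.09 between the others. Hars2 shares 198 bases with Hars, which lies on the opposite strand at 52.5 FPKM, and without a strand setting reads there cannot be told apart.

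Nars2, the mitochondrial asparaginyl-tRNA synthetase, was lowest in the 3 libraries numbered 1 and ran from 1.92 to 2.90 FPKM. Clpp, a protease of the mitochondrial matrix, ran from 20.02 to 24.9 FPKM. Pnpt1, a ribonuclease that also takes part in RNA import, ran from 11.8 to 14.3 FPKM. Prps1, which makes phosphoribosyl pyrophosphate for nucleotide synthesis, and Msrb3, a methionine sulfoxide reductase, ran from 25.5 to 31.2 FPKM and from 17.7 to 22.6 FPKM, both highest in libraries numbered 1. Of 15 other mitochondrial tRNA synthetases 14 were tested and none passed. Of 10 other genes of mitochondrial proteolysis, import, RNA decay and related enzymes 9 were tested and none passed. Of these, Chchd4, the import receptor that AIFM1 binds, had the smallest p in both comparisons with EV, at 4.24 ± 0.340 FPKM in c915dup, 3.90 ± 0.375 FPKM in WT and 5.20 ± 0.225 FPKM in EV (SD, n = 3 each). Its log2 difference was -0.34 ± 0.08 in WT against EV and -0.25 ± 0.08 in c915dup against EV (SE, limma adjusted p = 0.266 and 0.268).

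Genes of the secretory pathway, membranes and signalling include Gsdme. Without a block it was the 1 deafness gene with an unadjusted p under 0.05 in WT against EV. It encodes a gasdermin, which forms membrane pores once a caspase has cut it (chromosome 6, positions 50188888 to 50263862). Gsdme stood at 4.25, 4.51 and 4.49 FPKM in c915dup, at 4.52, 5.43 and 4.42 FPKM in WT and at 3.77, 4.04 and 4.04 FPKM in EV. Both groups with LMX1A lay above all EV libraries. The log2 difference was 0.22 ± 0.08 (SE) in WT against EV, where p was 0.0221 before and 0.706 after limma's adjustment over all genes. In c915dup against EV it was 0.13 ± 0.08 (limma adjusted p = 0.614). Gsdme overlaps Mpp6, at 22.0 FPKM on the opposite strand, over 10052 bases of the gene.

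Serpinb6a, an inhibitor of intracellular proteases, was the second highest of the 41 genes (chromosome 13, positions 33917918 to 34002794). It stood at 266, 248 and 247 FPKM in c915dup, at 259, 262 and 250.3 FPKM in WT and at 280.2, 279.7 and 259 FPKM in EV. The groups overlapped, with a log2 difference of -0.10 ± 0.05 (SE) in c915dup against EV (limma adjusted p = 0.505). It has close paralogs and overlaps Nqo2, Ripk1 and 1110046J04Rik on the opposite strand, at 14.5, 12.6 and 3.83 FPKM. How many of its reads could belong to these genes was not measured. Cd164, a sialomucin of endosomes and the cell surface (chromosome 10, positions 41519414 to 41531048), stood at 125, 99.2 and 105 FPKM in c915dup, at 120.1, 106 and 109 FPKM in WT and at 124, 102 and 109.9 FPKM in EV. Its libraries numbered 1 were above all 6 others, and no difference between groups passed (limma adjusted p = 0.951 to 0.999).

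Wfs1, which encodes wolframin of the endoplasmic reticulum, was the steadiest of the 27, from 6.80 to 7.49 FPKM, the highest value being 1.10 times the lowest. Ccdc50, an adaptor that binds ubiquitin, and Osbpl2, an oxysterol-binding protein, ran from 17.5 to 21.3 FPKM and from 14.4 to 17.0 FPKM. Tbc1d24, which takes part in vesicle traffic, ran from 6.05 to 8.73 FPKM with libraries numbered 1 on top. Ppip5k2, a kinase that makes inositol pyrophosphates, was lower in all WT than in all EV libraries, at 9.49 ± 0.175 and 10.3 ± 1.04 FPKM (SD, n = 3 each). The log2 difference of Ppip5k2 was -0.28 between the libraries numbered 1 and -0.02 between the others. Coch, which encodes cochlin of the cochlear matrix, was above 0 in 1 library, at 0.0256 FPKM, and the scaffold gene Homer2 in none. Of 14 other genes of these pathways 13 were tested and none passed. Ip6k2, an inositol hexakisphosphate kinase, had the smallest p in both comparisons with EV, at 21.2 ± 1.32 FPKM in c915dup, 21.0 ± 2.27 FPKM in WT and 17.4 ± 1.43 FPKM in EV (SD, n = 3 each). It did not pass without a block or with the replicate block, and passed with the block of libraries numbered 1 (log2 difference 0.27 in c915dup and 0.26 in WT against EV, limma adjusted p = 0.00564 and 0.0159). Arf6, a small GTPase that TBC1D24 binds, passed under that block in c915dup against EV, at 56.0 ± 8.34 and 47.4 ± 4.26 FPKM (SD, n = 3 each, limma adjusted p = 0.0375).

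Growth factor and melanocyte genes were split within pathways. The ligand gene Hgf ran from 1.66 to 2.76 FPKM and its receptor gene Met from 12.5 to 15.8 FPKM. Met (chromosome 6, positions 17463800 to 17573980) stood at 14.8, 13.5 and 12.6 FPKM in c915dup, at 15.8, 14.4 and 14.7 FPKM in WT and at 14.1, 13.8 and 12.5 FPKM in EV. All WT libraries lay above all EV libraries, and the log2 difference was 0.14 ± 0.07 (SE, limma adjusted p = 0.879). Hgf was lower in all c915dup than in all EV libraries, at 1.94 ± 0.236 and 2.21 ± 0.110 FPKM (SD, n = 3 each). Of 10 other genes of HGF and MET signalling 5 were tested and none passed.

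Mitf and Pax3, transcription factors that are mutated in Waardenburg syndrome, ran from 2.24 to 3.03 FPKM and from 2.22 to 3.70 FPKM, with libraries numbered 1 on top in both. The receptor genes of the same lineage were silent or nearly so. Kit was listed at 0 throughout and Ednrb was above 0 in 1 library, at 0.0187 FPKM. Of 11 other melanocyte genes 4 were tested and none passed, and Sox10, Dct and Edn3 were listed at 0 in all libraries.

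Ion transport and tight junction genes of the set fell below the test in every group. P2rx2, an ATP-gated cation channel, was the highest of them, at 0, 0.158 and 0.124 FPKM in c915dup, at 0.0551, 0.101 and 0.102 FPKM in WT and at 0.0739, 0 and 0 FPKM in EV. Kcnq1 and Kcne1, the pore and accessory subunits of the potassium channel of strial marginal cells, reached 0.0868 and 0.0168 FPKM at most. Slc26a4, the anion exchanger pendrin, was listed at 0. Marveld2, which encodes tricellulin of the junctions between several cells, was above 0 in 1 WT library, at 0.0935 FPKM. Ildr1 and Cldn14, further proteins of tight junctions, were listed at 0. At these levels no difference was detectable. Of 14 other genes of endolymph ion transport 4 were tested, among them the cotransporter gene Slc12a2, and of 12 other tight junction genes 3 were tested, and none passed. With the block of libraries numbered 1 Slc12a2 passed as lower in c915dup than EV, at 20.4 ± 2.97 and 24.1 ± 1.47 FPKM (SD, n = 3 each, log2 difference -0.24, limma adjusted p = 0.0252). Atp1b1 had the smallest p of the ion transport list in every comparison, and all its c915dup libraries lay below all others. Its log2 difference was -0.24 ± 0.08 from EV and -0.19 ± 0.08 from WT (SE, limma adjusted p = 0.239 and 0.458 without a block).

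Without a test, the libraries of 2 groups did not overlap for a few deafness genes. In WT against EV 3 of 27 were higher in all WT libraries (Met, Bdp1 and Gsdme) and 1 lower (Ppip5k2), where 6.7% of all genes tested were higher and 6.17% lower. In c915dup against EV 1 was higher (Gsdme) and 3 lower (Myh9, Hgf and Aifm1), where 9.29% and 7.58% were. In c915dup against WT 0 were higher and 2 lower (Myh9 and Aifm1), where 9.23% and 6.85% were. The 2 comparisons with EV share the EV libraries, and those with c915dup share the c915dup libraries.

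A larger split ran across the groups. In 9 of 27 deafness genes all 3 libraries numbered 1 lay above all 6 others, where 16.1% of all genes tested did so. These were Actg1, Mitf, Pax3, Pou3f4, Eya4, Prps1, Msrb3, Cd164 and Tbc1d24. In 2 of 27, Tprn and Nars2, they lay below all others, where 7.95% of genes did so. What the number 1 stands for is not given in the labels. Each group has 1 such library, so that the split is balanced over the groups.

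**Figure D4:**
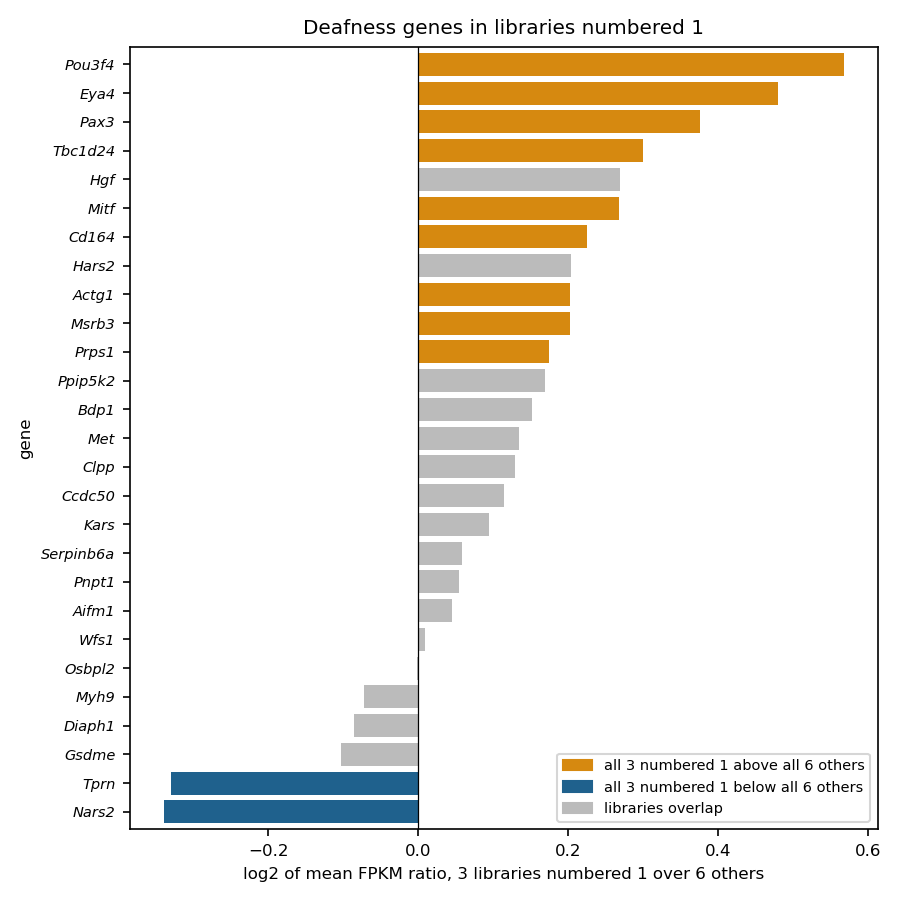
Log2 of the mean FPKM of the 3 libraries numbered 1 over the mean of the 6 others, for each of the 27 tested deafness genes. Orange bars mark the 9 genes with all 3 libraries numbered 1 above all others, led by Pou3f4, and blue bars the 2 genes with all 3 below.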

How the data were processed

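TruSeq libraries were made from 1 ug of total RNA each, per the labels' protocols. The authors deposited FPKM for 55451 genes, a unit read from the values because the headers name none. GRCm38, HISAT2, RSEM, edgeR, Trimmomatic, FastQC and CASAVA 1.8 are named, per the submitters' processing notes, while the series' design text has BWA, TopHat and Cufflinks. Use of strand in counting is not stated. The authors' second FPKM table repeats the first in 148608 of 148608 cells.

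The 11933 genes that reached 1 FPKM in 3 libraries or more were taken as log2(FPKM + 1), a pseudocount of 1, which understates changes of low genes. They were fitted in 1 model of 3 group means with limma 3.58.1 in R 4.3.3 (eBayes with trend and robust), two-sided, with Benjamini-Hochberg adjustment. The fit was tested on simulated data with independent libraries and no split by library number. The changes set there were larger than any difference seen in the deafness genes. That test therefore does not bear on small differences or on the libraries numbered 1. Tables and plots used Python 3.11.15, pandas 2.3.3, numpy 2.4.6 and matplotlib 3.10.9. Promoters are from RefSeq, where 34 of 41 genes matched. GRCm38 coordinates are those of the deposited table.

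Members and lists were chosen with earlier results of these data known. Values in every library are given for genes called without a block or with the replicate block, the 5 highest, the 3 with the smallest p per comparison and the highest of each role list. Partner genes are named where called without a block or with the replicate block, or with the smallest p of their list, except for results that are not reported here. Myh10, Slc12a2, Arf6, Pdgfra, Col3a1, Tbx18 and Twist1 were named after their values were seen. The level of Actb was likewise added after it was seen.

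Replicate numbers were checked as pairs. Deviations of WT and EV libraries from their group means correlated at 0.621, 0.388 and 0.259 for numbers 1, 2 and 3. All 3 were positive, but WT 2 with EV 3 (0.299) and WT 3 with EV 2 (0.275) correlated above number 3, so that only number 1 is set apart. For c915dup, number 1 correlated at 0.638 with WT and 0.656 with EV, and number 3 at 0.235 and 0.324, below its correlation with number 2. Number 4 is in 1 group only and adds nothing to a blocked contrast. Alternatives were pseudocounts of 0.1 and 0.5, other filters, median-ratio and quantile scaling, eBayes without trend and robust, fits of 2 groups, blocks, and libraries left out.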

Additional observations from a re-analysis of the deposited data

How the results depend on the processing

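The number of deafness genes at 1 FPKM or more stayed at 27 under each alternative rule. The number called stayed at 0 in each comparison with other pseudocounts, filters, scalings, eBayes settings, fits of 2 groups, the replicate block, or any 1 library left out without a block. It became 0, 1 and 2 in WT against EV, c915dup against EV and c915dup against WT without the libraries numbered 1, and 1, 1 and 2 with the block of libraries numbered 1. With that block and 1 library left out it ran from 0 to 1, 0 to 1 and 0 to 2. Of all genes tested, the calls in the same order of comparisons numbered 42, 130 and 27. They were 24, 66 and 10 with no filter, 27, 63 and 14 with only the 2 groups compared, 96, 227 and 137 with the replicate block, 83, 403 and 349 without libraries numbered 1, and 145, 661 and 574 with the block of libraries numbered 1. For c915dup against WT they were 43 with a mean of at least 5 FPKM, 62 with median-ratio scaling and 54 with quantile normalization. With 1 library left out they ran from 19 to 40, 61 to 111 and 8 to 36 without a block, and from 78 to 166, 318 to 825 and 197 to 490 with the block of libraries numbered 1. The replicate block changed no call of a deafness gene. Some uncalled log2 differences near 0 changed sign: Met in c915dup against EV (-0.0041 without libraries numbered 1, and -0.038 to 0.070 with 1 library left out), Serpinb6a in c915dup against WT (0.015 with the replicate block, -0.053 to 0.0066 with 1 left out) and Cd164 in WT against EV (-0.0062 with quantile normalization, -0.062 to 0.075 with 1 left out). With 1 library left out, so did Actg1 in c915dup against WT (-0.10 to 0.045), Pou3f4 in c915dup against EV (-0.15 to 0.24), Kars in c915dup against WT (-0.094 to 0.0040), Hars2 in WT against EV (-0.16 to 0.0037) and in c915dup against EV (-0.0012 to 0.18), Aifm1 in WT against EV (-0.043 to 0.089), and Cd164 in c915dup against EV (-0.13 to 0.044) and against WT (-0.13 to 0.038). The cause of these changes was not tested.

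With 3 libraries a group and no counts, small changes of genes near 1 FPKM could be missed, and the 14 genes below 0.158 FPKM could not be compared at all. The authors' FPKM gives no fragment counts, so the depth is an estimate and no counting interval is given.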

Other observations

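Promoters of tested deafness genes had a higher median CpG content than those of untested ones, with overlapping ranges. Over the window from 250 bases before to 50 bases after the start, the median ratio of observed to expected CpG was 0.839 for 24 tested deafness genes and 0.602 for 10 that were not tested. It was 0.791 over the promoters of 8826 genes tested in the whole table and 0.254 over 11769 not tested. The median of the untested deafness genes lay between these 2 medians. Single ratios ran from 0.368 to 1.19 in tested deafness genes and from 0.266 to 0.967 in untested ones. The median GC content was 62.5% for tested and 60.5% for untested deafness genes, against 61.3% for tested and 49.7% for untested genes of the whole table. These values are a description, and no test was made.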
